A study of Rattus norvegicus with 30 samples.

Results

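Genes of the cell division cycle and of DNA replication were followed in the kidneys of male rat pups over 3 ages and 2 maternal diets. The 47 genes were chosen as a list of names, and each was represented by the array probe set that carries its symbol alone and has the highest mean over all 30 arrays. Of the 47 genes, 44 were measured, among 14217 genes that could be represented in this way. Of these, 12 act in S phase, the period of DNA synthesis, 29 act in G2 phase and mitosis, and 3 (Ccnd1, Ccne1 and Cdk2) act in G1 phase and at the entry into S phase. Rrm2 and Anln were on probe sets shared with another symbol only, and Tpx2 had no probe set with its symbol in the annotation used here, so these 3 were not analysed.

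All pups were of the stroke-prone spontaneously hypertensive strain (SHRSP/Izm), so that every group carries the hypertensive background. Their dams received a diet with 20% casein (control, CN) or 9% casein (low protein, LP) while pregnant, and all dams were given the same commercial diet after delivery. Kidneys were taken on postnatal day 5, 10 or 28, which gave the groups D5-CN, D5-LP, D10-CN, D10-LP, D28-CN and D28-LP with 5 arrays each. The D5 and D10 pups were sucklings, and litters were not given, so pups of a group may share a dam. The labels call the arrays biological replicates while the methods speak of pooled RNA, so the p-values below measure the spread between arrays, which may be technical. Values are log2 signals, on which a difference of −1 is a 2-fold lower signal. The signal of a probe set is not a molecule count, so no gene is ranked against another by its level.

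As background, a cell enters S phase when cyclin D and cyclin E kinases inactivate the retinoblastoma proteins and release the E2F transcription factors, which switch on the replication genes. Mitotic genes are switched on later, by B-MYB, FOXM1 and the MuvB complex, with MuvB acting at a promoter element named CHR. The CCAAT box is a separate element of such promoters. In the rat, nephrons are still being formed in the first days after birth, and the tubules then grow by division of their cells, after which the kidney becomes a tissue with few dividing cells. In whole-kidney RNA, fewer dividing cells and less RNA per dividing cell cannot be told apart.

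The promoters of the members were searched for these elements, a property that the gene list did not use. In the RefSeq promoter table (build GRCr8), 37 of the 44 measured genes had an entry, and the 250 bases before the transcription start were searched on both strands. Ccnd1, Mcm4, Ccna2, Aurkb, Pbk, Ube2c and Racgap1 were not in the table. For Kif2c and Cdkn3, which had 2 start sites, the first was used. The E2F site was searched as TTCCCGC or TTGGCGC, the CHR as TTTGAA or TTCGAA, and the CCAAT box as CCAAT, and the letters of a CCAAT box on the other strand can run into those of an E2F site. An E2F match was found in 5 of 11 S phase promoters (45.5%) and 4 of 24 mitosis promoters (16.7%), against 6.35% of 21842 promoters of protein-coding genes. A CHR together with a CCAAT box was found in 11 of 24 mitosis promoters (45.8%) and 2 of 11 S phase promoters (18.2%), against 6.08% of the protein-coding promoters. A CCAAT box of any kind was found in 63.6% of S phase and 79.2% of mitosis promoters, against 7641 of the 21842 protein-coding promoters. The difference between the classes was not tested. A match describes the letters of the window and is no evidence of binding. Below are, of the S phase members with an E2F match and of the mitosis members with a CHR and a CCAAT box, the 2 of each whose signal fell most from D5 to D28 in CN. They are shown because they carry the elements of the class, and capitals mark every E2F, CHR or CCAAT match.
Mcm6 (chr13:42404353-42404602, minus strand): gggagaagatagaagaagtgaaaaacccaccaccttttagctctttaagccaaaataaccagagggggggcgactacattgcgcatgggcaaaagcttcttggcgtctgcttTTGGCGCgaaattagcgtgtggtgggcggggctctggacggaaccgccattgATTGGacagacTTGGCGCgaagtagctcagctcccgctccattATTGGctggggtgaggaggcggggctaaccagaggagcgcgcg
Rrm1 (chr1:166235654-166235903, plus strand): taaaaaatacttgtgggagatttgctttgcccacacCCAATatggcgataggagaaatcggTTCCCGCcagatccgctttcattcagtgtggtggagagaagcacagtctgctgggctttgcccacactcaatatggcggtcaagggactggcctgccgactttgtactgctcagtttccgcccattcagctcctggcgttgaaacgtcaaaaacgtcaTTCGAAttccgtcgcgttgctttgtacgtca
Top2a (chr10:84473094-84473343, minus strand): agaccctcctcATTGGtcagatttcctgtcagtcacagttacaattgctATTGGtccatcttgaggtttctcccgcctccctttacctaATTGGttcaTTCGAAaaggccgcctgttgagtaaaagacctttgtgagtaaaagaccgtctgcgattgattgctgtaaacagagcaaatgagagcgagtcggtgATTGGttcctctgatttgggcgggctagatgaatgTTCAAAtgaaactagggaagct
Ccnb2 (chr8:79981659-79981908, minus strand): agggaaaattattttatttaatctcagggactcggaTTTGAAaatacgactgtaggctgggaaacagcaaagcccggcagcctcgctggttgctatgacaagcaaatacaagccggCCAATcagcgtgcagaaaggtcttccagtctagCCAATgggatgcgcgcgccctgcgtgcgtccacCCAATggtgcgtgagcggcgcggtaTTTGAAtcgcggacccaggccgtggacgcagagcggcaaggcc
Mcm6 held 2 E2F matches and 2 CCAAT boxes and Rrm1 held 1 of each kind, while Top2a had 4 CCAAT boxes and Ccnb2 had 3, each with 2 CHR matches. Members that fell could also lack these letters: Bub1 and Kif2c had no match of any kind, Bub1b had a CHR alone, and among S phase genes Tk1 and Fen1 had none.

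Nearly the whole list fell with age, in 2 steps. From D5 to D10 in CN pups, all 44 members were called lower (limma, Benjamini-Hochberg adjusted p under 0.05 over 31042 probe sets), where 30.3% of all probe sets were called lower. In LP pups 40 of 44 were called lower (28.7% of all). From D10 to D28 a further fall was called for 39 members in CN (28.9% of all) and 41 in LP (28.8% of all), while Ccnd1 was called higher in both (31.5% and 31.1% of all were called higher). Changes of −1 or lower were found for 11 members in CN and 5 in LP from D5 to D10 (0.867% and 0.535% of all), and for 10 and 17 from D10 to D28 (3.18% and 3.21% of all). The steps were large beside the array-wide shift: over all probe sets the median change was −0.07 in CN and −0.08 in LP from D5 to D10, and 0.02 in both from D10 to D28. The sources do not say whether the ages were normalized together, so each change between ages may carry an offset of this kind.

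**Figure D1:**
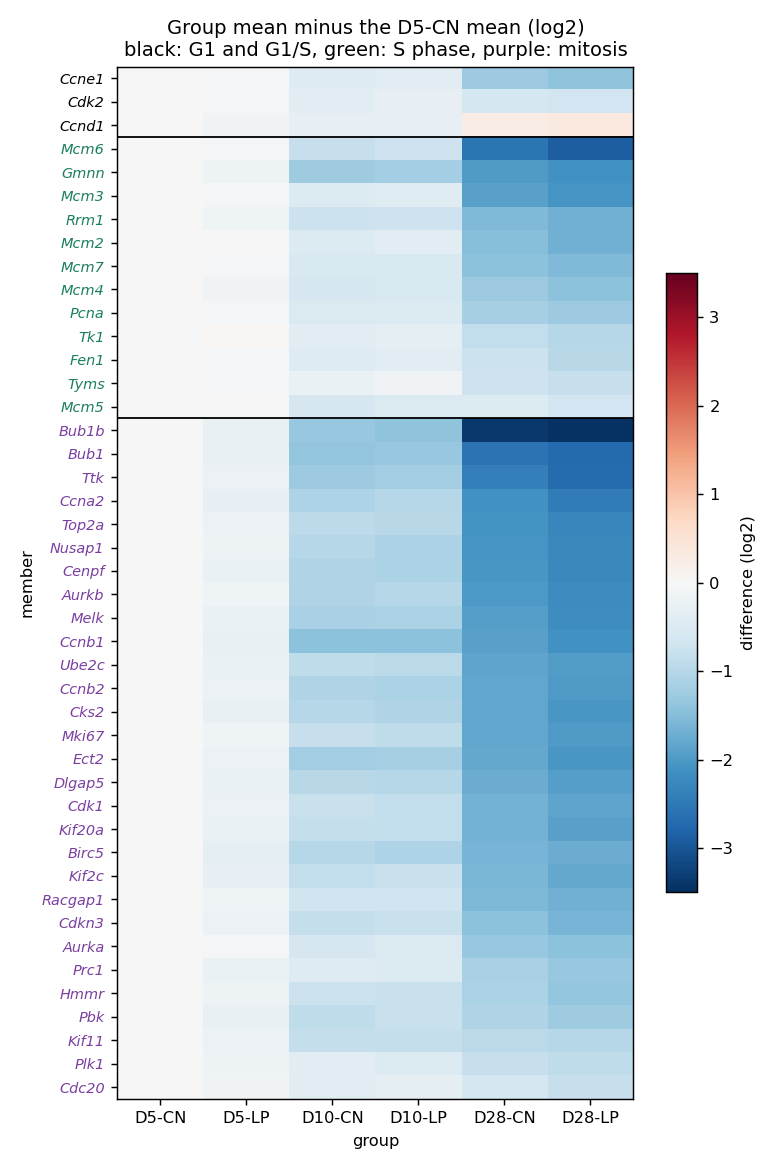
Each row is a measured member and each column a group of 5 arrays, and colour gives the group mean minus the D5-CN mean on the log2 scale (blue lower, red higher). Bub1b is the darkest row at D28, at −3.38 in D28-CN, and Ccnd1 is the 1 member above its D5-CN mean at D28.

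Mki67 encodes Ki-67, a protein that coats mitotic chromosomes and is used as a label of dividing cells. At D5 its log2 signals were 10.41, 10.45, 10.52, 10.95 and 10.87 in CN and 10.44, 10.44, 10.38, 10.51 and 10.70 in LP. At D10 they were 9.53, 9.87, 9.86, 10.05 and 9.89 in CN and 9.56, 9.83, 9.87, 9.72 and 9.81 in LP. At D28 they were 8.90, 8.56, 8.97, 8.87 and 8.83 in CN and 8.63, 8.80, 8.56, 8.70 and 8.53 in LP. Every D5 array was above every D10 array, and every D10 array above every D28 array. The change in CN was −0.80 ± 0.10 (SE) from D5 to D10 (adjusted p = 4.39e-07) and −1.01 ± 0.10 from D10 to D28 (adjusted p = 1.64e-09), so that the D5-CN mean was 3.51 times the D28-CN mean on the linear scale. In LP the changes were −0.74 and −1.11. Members with no overlap of any array across the 3 ages were 9 of the 12 S phase members, 21 of the 29 mitosis members (Mki67 included) and Ccne1 and Cdk2, against 4.12% of all probe sets.

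**Figure D2:**
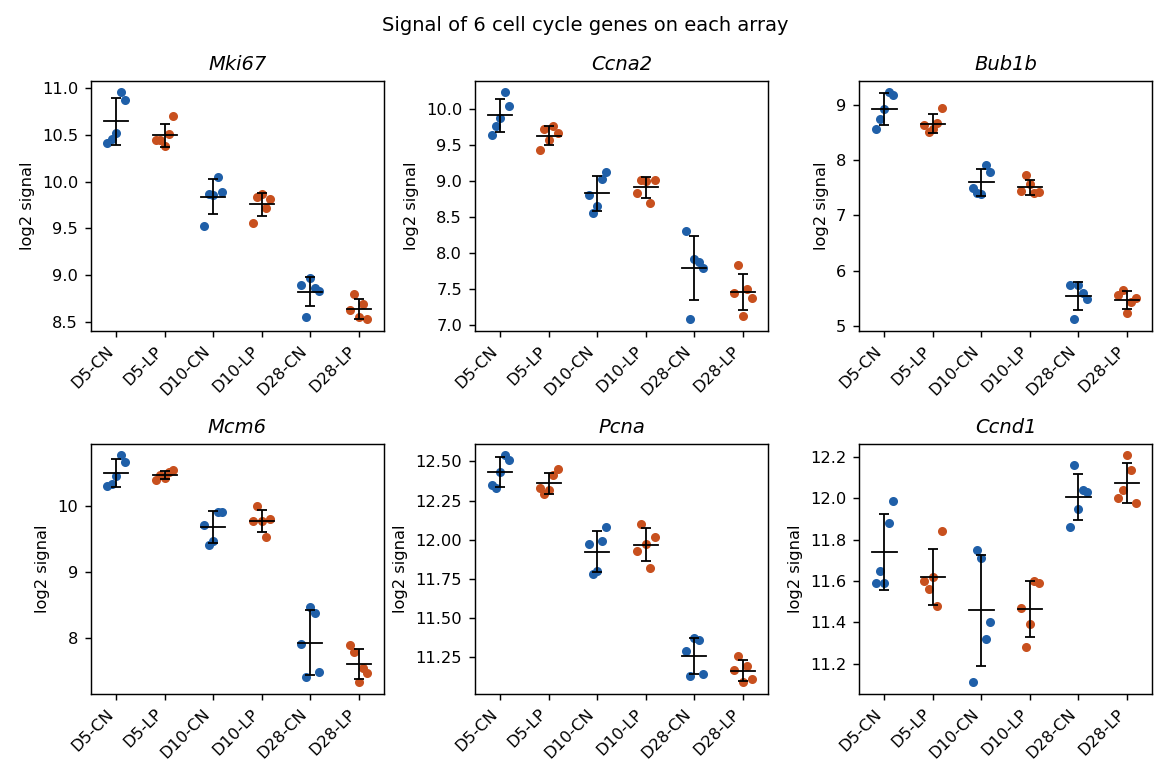
Each point is 1 array (blue CN, orange LP), the bar its group mean with SD (n = 5), and the vertical axis the log2 signal, with its own range in each panel. Mki67, Bub1b, Mcm6 and Pcna fall at each age without overlap, and Ccnd1 is highest at D28, at 11.86 to 12.21.

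The mitosis members had the larger median fall in the first interval. The median change from D5 to D10 in CN was −0.908 for the 29 mitosis members, −0.518 for the 12 S phase members and −0.359 for the 3 G1 members. In LP these medians were −0.737, −0.416 and −0.221. From D10 to D28 the medians of the mitosis and S phase members lay close together, at −0.801 and −0.706 in CN and −0.972 and −0.908 in LP. These medians describe lists and were given no test.

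Among the mitotic cyclins and their kinase is cyclin B1 (Ccnb1), which activates Cdk1 for entry into mitosis. By the probe set taken for each gene, Ccnb1 had the largest fall of all members from D5 to D10 in CN, −1.45 ± 0.14 (SE, adjusted p = 3.95e-09). Its D5-CN signals were 9.66, 9.98, 10.01, 10.24 and 10.04 and its D10-CN signals 8.70, 8.15, 8.41, 8.73 and 8.71. At D28-CN they were 8.46, 7.56, 8.21, 8.15 and 8.06, so that the D10 and D28 groups overlapped and 76% of the whole fall was present by D10. Its other probe set changed by −1.24 and then by −0.98 in CN, so this share depends on the probe set taken. The ranking does too, as the other probe set of Ttk changed by −1.63 from D5 to D10 in CN. Cyclin B2 (Ccnb2) changed by −1.06 ± 0.11 from D5 to D10 in CN. Cyclin A2 (Ccna2), which serves both S phase and the entry into mitosis, changed by −1.08 ± 0.16 in that interval. Cdk1 itself, the mitotic kinase, had group means of 10.64 ± 0.19 (SD, n = 5), 9.86 ± 0.16 and 8.97 ± 0.24 in CN at D5, D10 and D28, and changed by −0.78 and then by −0.89. The Cdk1 cofactor Cks2 changed by −1.0 and then by −0.81. The kinases of the centrosome and the chromosomal passenger complex, Aurka and Aurkb, changed by −0.60 and −1.06 from D5 to D10, and Plk1 by −0.38.

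Genes of the spindle checkpoint, which holds a cell in mitosis until every chromosome is attached, were among the members that fell most at both steps. For Bub1b, which encodes the checkpoint protein BubR1, the D5 signals were 8.55, 8.74, 8.92, 9.22 and 9.17 in CN and 8.63, 8.50, 8.55, 8.66 and 8.94 in LP. By D10 they were 7.49, 7.40, 7.39, 7.91 and 7.78 in CN and 7.44, 7.72, 7.57, 7.40 and 7.42 in LP. At D28 they were 5.74, 5.12, 5.74, 5.60 and 5.49 in CN and 5.56, 5.66, 5.23, 5.43 and 5.50 in LP. No array of an age overlapped with another age, and D28-CN replicate 2 and D28-LP replicate 3 were the lowest of their groups. The fall in CN was −1.33 ± 0.13 and then −2.06 ± 0.13 (adjusted p = 5.04e-09 and 1.44e-13), which made the D5-CN mean 10.4 times that of D28-CN, the largest ratio among the members. Bub1, a kinase of the same checkpoint, changed by −1.39 and −1.20, and Ttk, the kinase that starts checkpoint signalling, by −1.26 and −1.12. Cdc20, the activator of the anaphase-promoting complex, had the smallest fall of the mitosis members from D5 to D28 in CN. It changed by −0.37 ± 0.11 (adjusted p = 0.00835) and then by −0.25 ± 0.11, which was not called (adjusted p = 0.0592). Its probe set is 1 of 5 with that symbol, and over these the change in CN from D5 to D28 ran from −2.09 to 0.04, so its value depends on the probe set taken. Ube2c, the ubiquitin-conjugating enzyme of the same complex, changed by −0.88 and −0.97.

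Among spindle and chromosome genes, Top2a, the topoisomerase that untangles replicated DNA, changed by −0.91 and −1.20 in CN. Its group means were 10.53 ± 0.28, 9.63 ± 0.13 and 8.43 ± 0.22 (SD, n = 5). Cenpf of the kinetochore changed by −1.06 and −0.98, and Nusap1, a microtubule binder of the spindle, by −0.99 and −1.07. Birc5, which encodes survivin of the chromosomal passenger complex, changed by −1.0 and −0.64. The spindle motor Kif11 changed by −0.84 to D10 and was at −0.11 ± 0.17 after it (adjusted p = 0.584), a value that turned to 0.06 without D28-CN replicate 2 and to 0.11 as the mean of its probe sets. Pbk, a mitotic kinase, likewise fell to D10 (−0.89) and was not called afterwards in CN (−0.16, adjusted p = 0.345), while in LP it was called at −0.46. The cytokinesis genes Ect2, Kif20a, Racgap1 and Prc1 changed by −1.22, −0.82, −0.70 and −0.46 to D10 and by −0.58, −0.84, −0.87 and −0.69 to D28 in CN. The other 5 mitosis members (Cdkn3, Melk, Kif2c, Hmmr and Dlgap5) changed within the range of the list, which ran from −1.45 to −0.37 to D10 and from −2.06 to −0.11 to D28 in CN. Kif11, Pbk, Cdc20, Mcm5, Gmnn, Fen1 and the members given here by their change alone were named after their values were seen.

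Of the 12 S phase members, 9 fell more in the later interval in CN, by the probe set taken for each gene. Mcm2 to Mcm7 form the ring-shaped helicase that opens the DNA ahead of replication and Mcm6 had the largest fall among them. The D5 signals of Mcm6 were 10.29, 10.32, 10.44, 10.76 and 10.66 in CN and 10.38, 10.46, 10.42, 10.50 and 10.54 in LP. At D10 they were 9.70, 9.40, 9.46, 9.91 and 9.90 in CN and 9.77, 9.99, 9.77, 9.53 and 9.80 in LP. At D28 they were 7.91, 7.42, 8.47, 8.38 and 7.49 in CN and 7.90, 7.79, 7.34, 7.56 and 7.48 in LP. The D28-CN arrays thus spread over more than a unit while those of D5 lay within 0.47 of each other. Mcm6 changed by −0.82 ± 0.16 and then −1.74 ± 0.16 in CN (adjusted p = 0.000136 and 2.51e-10) and by −0.69 and −2.15 in LP, so that 32% of the fall in CN and 24.3% in LP was present at D10. Mcm3 changed by −0.48 and −1.41 in CN, Mcm2 by −0.49 and −1.01, Mcm7 by −0.53 and −0.92, and Mcm4 by −0.59 and −0.68.

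Mcm5 was the helicase gene not called lower after D10. Its D5-CN signals were 8.41, 8.39, 8.40, 8.51 and 8.58, its D10-CN signals 7.92, 7.69, 7.80, 7.98 and 7.94, and its D28-CN signals 7.96, 7.61, 8.31, 8.24 and 7.80. The D28-CN arrays lay on both sides of the D10-CN arrays. Mcm5 changed by −0.59 ± 0.09 to D10 (adjusted p = 7.56e-06) and by 0.12 ± 0.09 from D10 to D28 (adjusted p = 0.276), and without D28-CN replicate 2 the latter was 0.21 and called higher. In LP it was at −0.19 ± 0.09 in that interval and not called (adjusted p = 0.0787).

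Pcna, the clamp that holds the polymerase on DNA, had group means of 12.43 ± 0.09, 11.92 ± 0.13 and 11.26 ± 0.12 in CN and 12.36 ± 0.07, 11.97 ± 0.10 and 11.17 ± 0.07 in LP (SD, n = 5). It changed by −0.51 ± 0.06 and −0.66 ± 0.06 in CN, a 2.25-fold ratio of D5 to D28. Of the genes that supply nucleotides, Rrm1 of ribonucleotide reductase changed by −0.74 and −0.79 and thymidylate synthase (Tyms) by −0.23 and −0.50. Thymidine kinase (Tk1) changed by −0.39 and −0.46. Its further probe sets changed by −0.73 and 0.01 and by −0.49 and −0.14 in CN. Which step of Tk1 was larger thus depends on the probe set taken. The first change of Tyms had an adjusted p of 0.0259 in CN and was not called in LP (−0.10, adjusted p = 0.363), nor in CN after quantile normalization (−0.17) or median centring. Gmnn, which encodes geminin, the inhibitor of renewed licensing of replication, fell more before D10 than after it, with 63.2% of its fall present at D10, as did the flap endonuclease gene Fen1 (60.9%) and Mcm5. It changed by −1.25 and −0.73, but its other probe set changed by −1.13 and 0.56, and with both averaged the second change was not called.

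**Figure D3:**
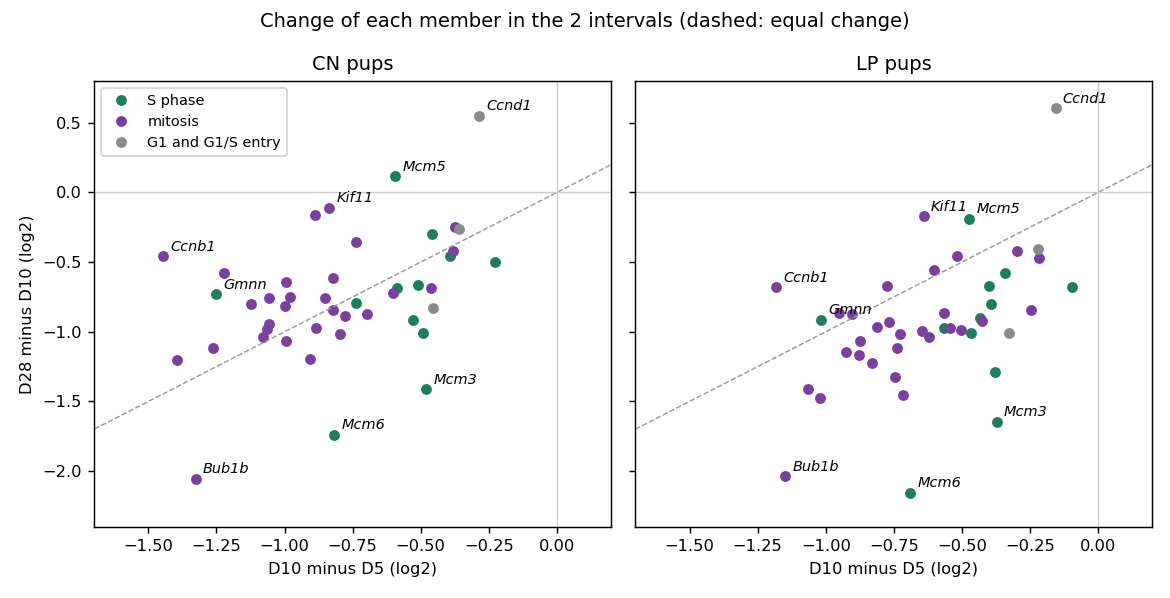
Each point is a member (green S phase, purple mitosis, grey G1), with its change from D5 to D10 on the horizontal axis and from D10 to D28 on the vertical axis, both on the log2 scale, for CN and LP pups. The changes share the D10 groups. Points below the dashed line fell more after D10, as did Mcm6 and Mcm3, and points above it fell more before D10, as did Ccnb1.

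Counted by member, 18 of 29 mitosis members and 3 of 12 S phase members fell more before D10 than after it in CN. In LP these counts were 7 of 29 and 2 of 12. The counts use a single probe set per gene, and by its further probe sets Tk1 fell more before D10 in CN. The median share of the fall from D5 to D28 that was present at D10 was 52.9% for mitosis and 44.8% for S phase members in CN, and 41.3% and 32.7% in LP. The diet difference of the change from D5 to D10 was not called for any member, as given below.

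Of the G1 members, Ccnd1 rose late. It encodes cyclin D1, which couples growth signals to entry into the cycle. Its D5 signals were 11.59, 11.65, 11.59, 11.88 and 11.99 in CN and 11.60, 11.56, 11.62, 11.48 and 11.84 in LP. At D10 they were 11.11, 11.75, 11.71, 11.32 and 11.40 in CN and 11.47, 11.28, 11.39, 11.60 and 11.59 in LP. At D28 they were 11.86, 12.16, 11.95, 12.04 and 12.03 in CN and 12.00, 12.04, 12.21, 12.14 and 11.98 in LP. All D28 arrays were above all D10 arrays, whereas D5 and D10 overlapped. From D10 to D28 Ccnd1 changed by 0.55 ± 0.10 in CN and 0.61 ± 0.10 in LP (adjusted p = 3.59e-05 and 9.2e-06), and its 2 further probe sets were also higher at D28 than at D10, by 0.47 and 0.66 in CN. The lower value at D10 than at D5 was called in CN (−0.28, adjusted p = 0.0238) and not in LP (−0.16, adjusted p = 0.231), and in CN it was not called after quantile normalization (−0.13). Cyclin E1 (Ccne1), which drives entry into S phase, changed by −0.45 and −0.83 in CN, and its partner kinase Cdk2 by −0.36 and −0.26.

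Other genes of the cycle, taken from lists of the same pathways, moved in the same direction in most cases. Of 32 further DNA replication genes, the numbers called lower to D10 and to D28 were 29 and 26 in CN and 28 and 27 in LP. Of 46 further mitosis genes they were 42 and 40 in CN and 39 and 41 in LP. Of all probe sets, 30.3% and 28.9% were called lower in CN and 28.7% and 28.8% in LP. The medians in CN were −0.574 and −0.733 for replication and −0.749 and −0.824 for mitosis genes. Orc1, the large subunit of the origin recognition complex, changed by −1.47 to D10, and Uhrf1, which carries DNA methylation over to new strands, by −1.42 and then −1.47. Pola1, of the polymerase that primes replication, changed by −1.48 after D10, while Pola2 of the same polymerase was called higher at 0.32. The kinetochore genes Ska1, Ska3 and Cenpa changed by −1.53, −1.43 and −1.21 to D10, and Depdc1, Nuf2, Kif15 and Kif18a by −1.96, −1.61, −1.60 and −1.47 to D28. The phosphatase Cdc25b, an activator of Cdk1, was called higher from D10 to D28 at 0.69 (adjusted p = 0.000281).

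Of 15 transcription factors of the cycle, 7 were called lower to D10 and 8 to D28 in CN (30.3% and 28.9% of all probe sets). Mycn, a factor of progenitor cells, had group means of 9.01 ± 0.31, 7.02 ± 0.22 and 6.24 ± 0.22 in CN and changed by −1.99 by D10 (adjusted p = 5.04e-11). Mybl2, which encodes the B-MYB that acts on mitotic promoters, changed by −0.64 and then by −1.37, with group means of 7.31 ± 0.10, 6.67 ± 0.06 and 5.29 ± 0.06. E2f7 and E2f8, repressors of the E2F family, changed by −0.87 and −0.59 and then by −0.84 and −1.01. Among G1 genes, cyclin D2 (Ccnd2) changed by −1.48 from D10 to D28, against the rise of Ccnd1, and Cdk4, the partner of the D cyclins, changed by −0.46 and −0.79, while Cdk6 changed by −0.41 and then by 0.45. The inhibitors did not move as a group. Of 14 inhibitors, pocket proteins and anti-proliferative genes, 7 were called lower and 4 higher from D10 to D28 in CN. Of all probe sets, 28.9% were called lower and 31.5% higher in that contrast. Cdkn1c, which encodes the inhibitor p57, had the widest change of them, with group means of 12.36 ± 0.20, 13.07 ± 0.27 and 10.39 ± 0.37, a change of 0.72 and then of −2.69. Podocytes are known to express p57, and the 4 podocyte markers measured were also called lower from D10 to D28 in CN (median −0.626). The mean of these markers was 9.79 in D5-CN and 9.86 in D10-CN. The part of podocyte content in the changes of Cdkn1c was not tested.

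Markers of kidney cell types moved with age beside the members. The means of the 6 endothelial markers ran from 9.03 to 9.50 in D5-CN and from 9.58 to 10.38 in D10-CN. Those of the 8 proximal tubule markers ran from 10.31 to 11.22 in D5-CN and from 10.69 to 11.72 in D28-CN. The means of the 5 measured nephron progenitor markers ran from 7.21 to 7.40 in D5-CN, from 6.89 to 7.03 in D10-CN and from 7.29 to 7.60 in D28-CN, so this list did not follow the members to D28. Adrenal and skeletal muscle lists stayed at 4.71 to 5.87 and 5.48 to 5.89. The part of cell type content in the changes was not tested.

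For each array the mean signal of the S phase members minus that of the mitosis members was taken. An offset of a whole array cancels in this difference, its absolute value has no meaning, and it was given no test. With group means removed, it correlated with the mitosis mean at −0.93 at D5, −0.788 at D10 and −0.498 at D28. It is thus not independent of that mean. In D5-CN the differences were 0.32, 0.14, 0.15, 0.09 and 0.15, and in D10-CN 0.54, 0.59, 0.50, 0.45 and 0.45. All D10-CN arrays were above all D5-CN arrays, and the means differed by 0.34. In D5-LP they were 0.38, 0.35, 0.39, 0.29 and 0.21 and in D10-LP 0.64, 0.56, 0.49, 0.56 and 0.62, without overlap and with means 0.25 apart. In D28-CN they were 0.26, 0.64, 0.71, 0.72 and 0.40 and in D28-LP 0.62, 0.45, 0.62, 0.54 and 0.58. The D28 means differed from the D10 means by 0.039 in CN and by −0.0145 in LP. The CN value was 0.111 without D28-CN replicate 1 and −0.0041 without replicate 4, and the LP value was 0.0122 without D28-LP replicate 2, so no direction is read from either. Of the groups, D28-CN had the widest spread (SD 0.205, against 0.058 to 0.087 in the others). Within D28-CN the lowest differences were those of replicate 1, the array with the highest mitosis mean, and of replicate 5.

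**Figure D4:**
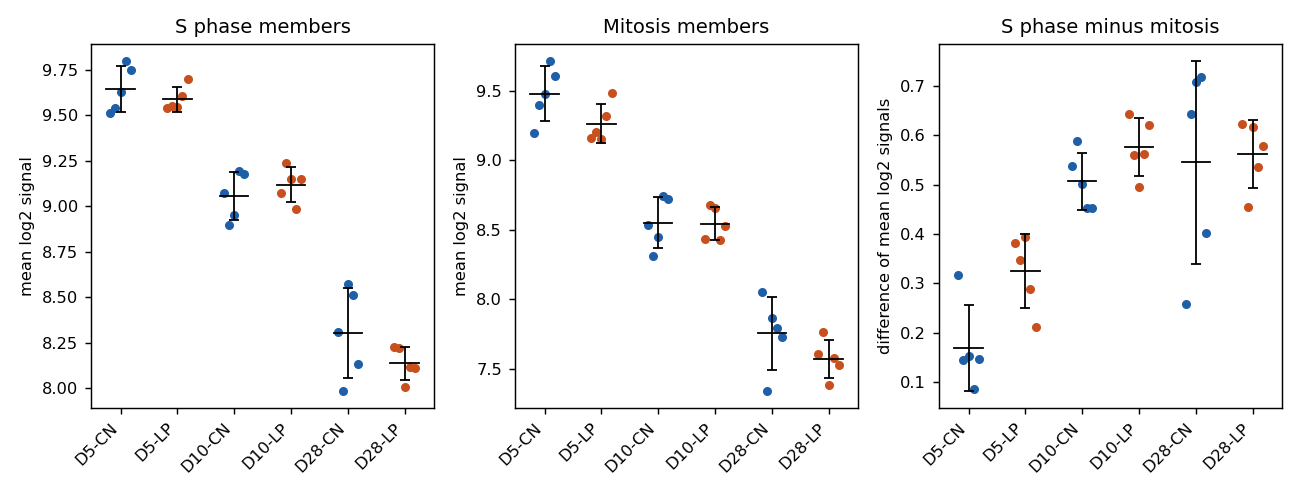
Each point is 1 array (blue CN, orange LP), with the mean log2 signal of the 12 S phase members at the left, of the 29 mitosis members in the middle, and their difference at the right; bars are group means with SD (n = 5). Both means fall with age, and the difference rises from D5 to D10.

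The diet comparison asked whether kidneys of LP pups differed from those of CN pups of the same age. No member was called at D5, D10 or D28, nor over the 3 ages averaged, at an adjusted p under 0.2 in limma. The smallest adjusted p was 0.529 at D5, 0.999 at D10, 0.77 at D28 and 0.312 for the average. At this threshold 0.0% of all probe sets were called lower at each age and 0.158% for the average, and 0.00644%, 0.0%, 0.0% and 0.155% were called higher at D5, D10, D28 and for the average. No member had 5 LP arrays that all lay on 1 side of the 5 CN arrays at any age, which 0.586%, 0.754% and 0.561% of all probe sets did in the lower direction at D5, D10 and D28, and 0.892%, 0.361% and 0.296% in the higher. The values below are therefore differences that did not pass the test.

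At D5 the differences (LP minus CN) of the 29 mitosis members were all below 0, from −0.301 to −0.0819 with a median of −0.211, where 50.3% of all probe sets were below 0. Those of the S phase members were below 0 for 11 of 12, with a median of −0.0453. At an unadjusted p under 0.05, 11 mitosis and 0 S phase members were lower, against 3.47% of all probe sets. Genes that rise and fall together in the same arrays are not separate observations, so these counts describe the arrays at hand. The smallest p among members was that of Pbk, with signals of 8.78, 8.97, 8.97, 9.24 and 9.05 in D5-CN and 8.66, 8.55, 8.68, 8.86 and 8.90 in D5-LP. All LP arrays were below the CN mean and the groups overlapped. The difference of Pbk was −0.27 ± 0.09 (SE, n = 5 and 5, adjusted p = 0.529, exact permutation p = 0.0397). Birc5 had signals of 8.48, 8.49, 8.54, 8.85 and 8.69 in D5-CN and 8.11, 8.28, 8.14, 8.39 and 8.62 in D5-LP, with LP replicate 5 among the CN arrays. It differed by −0.30 ± 0.10 (adjusted p = 0.545). Ccna2 had signals of 9.64, 9.77, 9.88, 10.23 and 10.04 in D5-CN and 9.43, 9.72, 9.57, 9.76 and 9.67 in D5-LP and differed by −0.28 ± 0.10 (adjusted p = 0.556).

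The array means show which samples carried this difference. The mitosis means were 9.20, 9.39, 9.47, 9.72 and 9.60 in D5-CN and 9.16, 9.20, 9.15, 9.32 and 9.49 in D5-LP. The CN replicates 4 and 5 were above all LP arrays, and the other 3 CN arrays lay within the LP range. Replicates 4 and 5 of D5-CN and replicate 5 of D5-LP also had the lowest means of the 8 proximal tubule markers, at 10.31, 10.56 and 10.46 against 10.90 to 11.22 in the other D5 arrays. The proximal tubule mean was used as a covariate, a choice made after the data were seen. With it, all 29 mitosis members were below 0 (median −0.195, 50.9% of all probe sets below 0). Of them, 22 had an unadjusted p under 0.05 (5.96% of all). Birc5 was called at −0.28 (adjusted p = 0.176, 0.654% of all called lower). Marker lists also lay apart at D5, with no marker called: 6 of 6 endothelial markers were above 0 in LP (median 0.228), with list means of 9.03 to 9.50 in CN and 9.44 to 9.58 in LP, and 9 of 9 inner medulla and collecting duct markers (median 0.168), with means of 9.74 to 10.04 and 9.87 to 10.28. Among 6 erythroid markers the highest difference was 0.473 (smallest adjusted p 0.345), with list means of 7.77 to 7.94 in CN and 7.90 to 8.13 in LP. With group means removed, the D5 mitosis mean correlated at −0.736 with the proximal tubule list and −0.724 with the leukocyte list. With the nephron progenitor, erythroid and endothelial lists the correlations were 0.713, 0.464 and −0.138. The part of cell type content in the difference, proximal tubule included, was not tested. With the inner medulla minus cortex mean as a covariate the median of the mitosis members was −0.25.

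At D10 the S phase differences lay mostly above 0, without any call. The differences of 11 of 12 S phase members were above 0 (48.4% of all probe sets were), with a median of 0.0624, and those of the mitosis members were below 0 for 17 of 29 (51.6% of all), with a median of −0.0197. Cdk2, Mcm2 and Mcm5 had the smallest p, with differences of 0.08 ± 0.06, 0.10 ± 0.07 and 0.10 ± 0.07, and none of the members had an unadjusted p under 0.05 (3.06% of all probe sets were lower and 1.96% higher at that p).

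At D28 all 12 S phase and all 29 mitosis members were below 0, where 56.2% of all probe sets were, with medians of −0.165 and −0.187. Of them, 3 mitosis members had an unadjusted p under 0.05 (3.14% of all probe sets were lower at that p): Ttk, Mki67 and Dlgap5. The signals of Ttk were 6.87, 6.21, 6.77, 6.43 and 6.47 in D28-CN and 6.26, 6.42, 6.09, 6.17 and 6.18 in D28-LP. Every LP array was below the CN mean, and CN replicate 2 lay within the LP range. Ttk differed by −0.33 ± 0.12 (adjusted p = 0.77), Mki67 by −0.18 ± 0.08 and Dlgap5, a spindle protein, by −0.20 ± 0.09. Mcm6 differed by −0.32 ± 0.21 and Ccna2 by −0.33 ± 0.20, with a wider spread. The rank product method, which the study's methods name, called Mcm6, Ccna2 and Ttk lower at D28 (0.483% of all probe sets) and Kif2c and Birc5 lower at D5 (0.638%), and no member at D10.

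Markers of kidney regions varied among the D28 arrays. D28-CN replicate 2 and D28-LP replicate 3 had the highest inner medulla minus cortex means of their groups, 0.686 and 0.932, against −0.505 to 0.604 in the other D28 arrays, and the lowest mitosis means of their groups, 7.34 and 7.39. Without these arrays the medians at D28 were −0.218 for S phase and −0.244 for mitosis members, with 21 mitosis members at an unadjusted p under 0.05 (4.81% of all probe sets in that fit) and still none called. With the inner medulla minus cortex mean as a covariate the medians were −0.0934 and −0.0802, and 26 of 29 mitosis members were below 0 (52.4% of all). With a sign of RNA integrity as the covariate, the gap between 3′ and 5′ probe sets of the control transcripts, they were −0.0649 and −0.0903. The 8 proximal tubule markers were all below 0 in LP at D28 (median −0.137), and 8 of 9 inner medulla and collecting duct markers were above 0 (median 0.28).

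**Figure D5:**
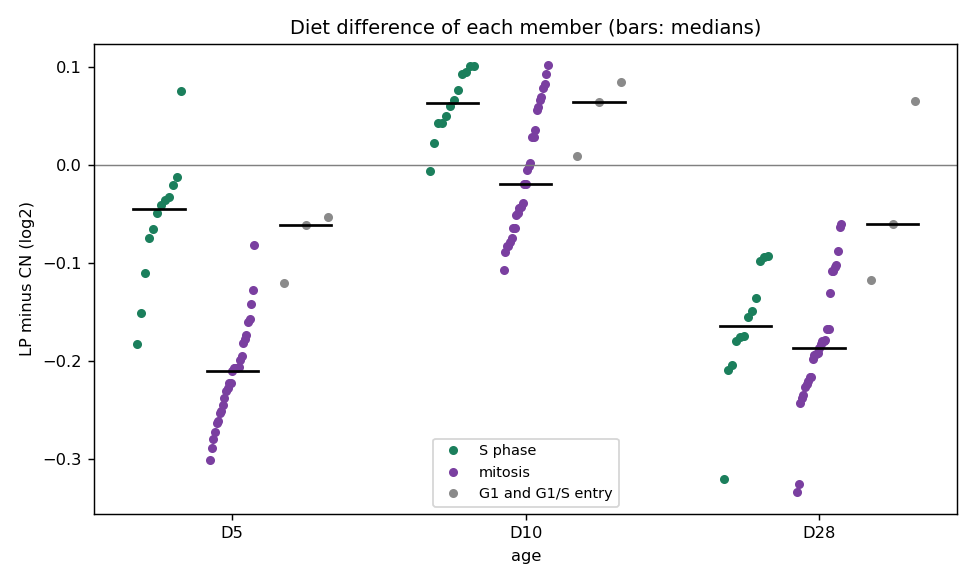
Each point is a member, with its LP minus CN difference of group means on the log2 scale at D5, D10 and D28; colours give the phase and bars the median. No difference passed the test, and the medians of the S phase and mitosis members lie at −0.0453 and −0.211 at D5, at 0.0624 and −0.0197 at D10 and at −0.165 and −0.187 at D28.

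Averaged over the ages, all 29 mitosis members (median −0.143) and all 12 S phase members (median −0.0559) were below 0 (53.3% of all probe sets). At an unadjusted p under 0.05, 15 mitosis and 0 S phase members were lower (6.75% of all). Birc5, Cks2 and Nusap1 had the smallest p, with differences of −0.16 ± 0.06, −0.18 ± 0.07 and −0.16 ± 0.06 (adjusted p = 0.312, 0.338 and 0.34). Of the inner medulla and collecting duct markers, 9 of 9 were above 0 in the same contrast (median 0.197). With the inner medulla minus cortex mean as a covariate the median of the mitosis members was −0.0981, and 3 had an unadjusted p under 0.05 (5.5% of all). The count of calls depended on 1 array: without D28-CN replicate 2, 10 mitosis members were called lower (Ccna2, Ccnb2, Cks2, Ttk, Nusap1, Cenpf, Hmmr, Birc5, Kif20a and Prc1), while the share of all probe sets called lower rose from 0.158% to 1.69%, and without that array and D28-LP replicate 3 none was.

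Whether the diet difference changed with age was tested by the interaction of diet and age, and no member was called (smallest adjusted p 0.999 for D10 against D5, 1.00 for D28 against D5 and 0.935 for D28 against D10). At an unadjusted p under 0.05 there were 1 mitosis member for D10 against D5 (2.43% of all probe sets in that direction), none for D28 against D5, and 2 S phase and 1 mitosis member for D28 against D10 (1.85% of all in that direction). The S phase minus mitosis mean was higher in LP than in CN by 0.155 at D5, 0.0694 at D10 and 0.0158 at D28. The D28 value ran from −0.0561 without D28-CN replicate 1 to 0.059 without replicate 4, so its sign rests on single arrays. At D5, 3 of 5 LP arrays were above all CN arrays. Without D5-CN replicate 1 the difference was 0.192, the highest value with 1 array left out, and the lowest was 0.134 without D5-CN replicate 4. The D5 value is not separate from the lower mitosis mean of LP at that age.

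Of the other cell cycle genes none was called at D5. In all, 44 of 46 further mitosis genes (median −0.192) and 26 of 32 replication genes (median −0.0839) were below 0. Of them, 16 and 7 had an unadjusted p under 0.05. Of all probe sets, 50.3% were below 0, and 3.47% were lower at that p. The smallest p were those of Troap, a spindle protein (−0.30 ± 0.07, adjusted p = 0.347), and Mcm10, a replication initiation factor (−0.24 ± 0.07, adjusted p = 0.457). Of the 14 inhibitors, pocket proteins and anti-proliferative genes 9 were above 0, as were 2 of 5 G1 genes, and no direction is read from these small counts. Mycn was at −0.46 ± 0.17 and Cdkn1c at 0.35 ± 0.09, the latter above 0. With the proximal tubule mean as a covariate Troap, Mcm10, Mycn and Cdkn1c were called at D5, with adjusted p of 0.128, 0.168, 0.129 and 0.177. Averaged over the ages, Psrc1, Mycn and Spc25 had adjusted p of 0.205, 0.205 and 0.209, just above the threshold, with differences of −0.17, −0.31 and −0.22. Myc went the other way, at 0.27 (adjusted p = 0.2485).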

How the data were processed

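Rat kidney RNA was hybridised to 30 Affymetrix rat genome arrays, which the labels call biological replicates while the methods speak of pooled RNA. The deposited values are log2 signals per probe set, which the authors summarised from the scans with qFARMS. Whether the ages were normalized together is not given in the sources used here. For arrays, precision is limited by their number, 5 per group. Of 31099 probe sets, 57 controls were left out. Of the rest, 20826 carried 1 symbol in the platform annotation, 436 several and 9780 none. The 3 further tables hold the authors' own comparisons and 30 array columns that match no sample name, and were not used. The members and lists were chosen with earlier results of these data known.

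Contrasts were fitted with limma 3.58.1 (R 4.3.3, lmFit and eBayes) on 31042 probe sets with Benjamini-Hochberg adjustment. Diet contrasts were fitted within each age, and age contrasts, averages and interactions on all 30 arrays. A call needed an adjusted p under 0.2 for diet and interaction and under 0.05 for age. Scores, rank products and permutation tests were computed in Python 3.11.15 (pandas 2.3.3, numpy 2.4.6, scipy 1.17.1), and figures drawn with matplotlib 3.10.9. Permutation tests were exact and two-sided. The fits were tested on simulated data.

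Values by group were given for a set list of members and, in each contrast, for up to 4 called members with the largest difference in each direction, or the 3 smallest p where none was called. The alternatives were other normalizations, probe set choices, fits, tests, covariates and left-out arrays. The proximal tubule covariate, and leaving out D28-CN replicate 2 with D28-LP replicate 3, were added after the data were seen.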

Additional observations from a re-analysis of the deposited data

Results flagged for a closer look

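In 6 of 108 groups of 5 arrays that were examined, 1 array lay apart from the other 4 by a gap that took up more than 0.71 of the group's range. Chance gives this in about 1 of 20 groups. Cdk2 was at 9.26 in D5-CN replicate 5, with the others at 9.03 to 9.09. Top2a was at 8.81 in D28-CN replicate 1, with the others at 8.26 to 8.39. Aurka was at 8.04 in D5-CN replicate 1, with the others at 8.22 to 8.26. Ube2c was at 10.29 in D5-LP replicate 5 (9.85 to 9.96 in the others) and at 9.03 in D10-LP replicate 1 (9.28 to 9.32 in the others). The S phase minus mitosis mean was 0.317 in D5-CN replicate 1, with the others at 0.0859 to 0.153.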

How the results depend on the processing

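Of the values recomputed for the genes chosen by rule, 2312 kept direction and call, 51 lost a call, 83 gained one and 0 reversed; the change of Kif11 from D10 to D28, which is not among them and was not called, turned sign as given above. The count of members called by diet was 0 under most settings. At D5 it was 7 by the methods' t-test without adjustment, 2 by rank products and 1 with the proximal tubule covariate. Of the 7, Tk1 was higher in LP, by 0.07. At D28 the count was 1 by the methods' t-test without adjustment and 3 by rank products. The share of all probe sets is not given for the unadjusted t-test, so nothing is read from its counts. For the average over ages the count was 1 with the proximal tubule covariate. It ran from 0 to 10 when arrays were left out in turn, the 10 without D28-CN replicate 2. The counts called by age given here take members called lower and higher together, so those from D10 to D28 include Ccnd1, called higher. When arrays were left out in turn, they ran from 42 to 44 and from 40 to 40 from D5 to D10 in CN and LP. From D10 to D28 they ran from 38 to 41 and from 42 to 42. Under the other settings that kept the threshold they ran from 42 to 44, 39 to 41, 38 to 40 and 41 to 43. With a difference of at least 1 also required they were 11, 5, 10 and 17. The S phase minus mitosis mean changed by 0.074 from D10 to D28 in LP with all probe sets of a gene averaged, and by 0.129 with Ccnd1, Ccne1 and Cdk2 added to S phase, against −0.0145 as reported; the cause was not tested. A fit with the replicate number as a replicate block left the diet counts at 0 and the age counts at 44, 40, 40 and 42. The deviations of same-numbered arrays correlated at −0.705 to 0.649, and in 1 of 15 cases the same number was the best match, so the numbers do not pair the samples.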
